A study of Mus musculus with 3 samples.

Results

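The 7 genes considered here, Grm2 to Grm8, encode metabotropic glutamate receptors. Occupancy by the thyroid hormone receptor TRα1 was read from 1 list of 23988 TR binding sites (TRBS). A TRBS was taken when its summit lay inside a Grm gene or within 30 kb of the 5′ end of that gene, in GENCODE vM21 on GRCm38. The rule kept 25 TRBS and used no measured value. It placed at least 1 TRBS at 6 of the 7 Grm genes, against 57.7% of the 21938 protein-coding genes. The median length was 240 kb for the Grm genes and 17.4 kb for all protein-coding genes, and the rule takes whole genes. Among other genes within 20% of the length of each Grm gene, between 58.8% (Grm2) and 98.6% (Grm8) had a TRBS. The chromatin came from striatum of adult male C57BL/6J mice with the genotype TRa1 GS-tagged. These mice were euthyroid, untreated and 8 weeks old, where the number is that of the label and the unit is taken from the study's description of the dataset. The tagged receptor was restricted to GABAergic neurons, but the driver of that restriction is not given in the sources used here. The series comprised 2 TRa ChIP libraries and 1 input library, and both kinds of library shared this genotype. Libraries from mice without the tag were not analysed here, so signal that does not depend on the receptor was not measured apart from the input. Chromatin was crosslinked with DSG and formaldehyde, which also retains indirect contacts with DNA. The list holds 1 set of values for the whole series. No value therefore has a replicate error, and no comparison between replicates, ages or hormone states was made. The number of reads per library was not analysed here.

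Metabotropic glutamate receptors are class C G protein-coupled receptors that work as dimers and respond to glutamate more slowly than the ion channels do. Group I, to which mGluR5 belongs, couples to Gq and phospholipase C and acts mainly on the postsynaptic side. Group II (mGluR2 and mGluR3) and group III (mGluR4, mGluR6, mGluR7 and mGluR8) couple to Gi/o, lower cAMP and, in most synapses, restrain transmitter release. In the striatum mGluR5 is abundant in the projection neurons, which are GABAergic. TRα1 binds DNA with RXR, typically at DR4 elements, in which the hexamer AGGTCA is repeated in the same direction after 4 bp.

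The repeat was searched on either strand, and up to 2 mismatches over both hexamers (12 bases, called half-sites) were allowed. Such a DR4 was present in 3 of the 25 TRBS (12%), against 17.3% of all TRBS. The 2 elements of Grm7 had 1 mismatch in each half-site, and they are shown because DR4 is the element through which TR is known to bind. Each sequence reads 5′ to 3′ on the strand of the repeat, with the half-sites in capitals and 7 flanking bases on either side:
Grm7 intron, chr6:110996460-110996475, minus strand: acagctgAGGTAActtgAGGACAgtcggga
Grm7 intron, chr6:111276810-111276825, plus strand: tcaagtgAGGTGActgaAGGTCTcctgtgt

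These elements were centred 25 and 17 bp from the summits of their TRBS.

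The 3 strongest TRBS that lay inside a Grm gene are shown next, as the 121 bases centred on each summit, in the direction of transcription of the gene. Capitals mark the half-sites of the DR4-like repeat with the fewest mismatches, where it had at most 3, and in the Grm5 sequence also CCGCCC, which is GGGCGG on the other strand:
Grm8, chr6:27904366-27904486, minus strand: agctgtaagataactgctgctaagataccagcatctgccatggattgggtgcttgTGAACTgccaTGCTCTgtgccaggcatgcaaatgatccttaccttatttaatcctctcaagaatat
Grm5, chr7:87584179-87584299, plus strand: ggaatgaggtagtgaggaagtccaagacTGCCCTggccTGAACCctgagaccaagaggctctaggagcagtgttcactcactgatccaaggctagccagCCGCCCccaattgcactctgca
Grm7, chr6:111399641-111399761, plus strand: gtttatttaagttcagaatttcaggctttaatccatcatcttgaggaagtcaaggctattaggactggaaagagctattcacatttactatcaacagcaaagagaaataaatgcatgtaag

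None of these 3 windows held a DR4 within the limit of 2 mismatches. The best repeats of the Grm8 and Grm5 windows had 3 mismatches each, and that of the Grm7 window had 5.

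Strength was described by the pileup, the number of ChIP fragments over the summit, and by the fold enrichment, which divides the pileup plus 1 by the local MACS background plus 1. The fold enrichment of the 25 TRBS had a median of 7.44 (nominal 95% order-statistic interval 6.62 to 10.04) and ranged from 5.17 to 32.0. This interval is for the median, and the ranks used cover slightly less than 95%. It takes TRBS as units, which are not replicates. The quartiles of the 25 values were 6.29 and 12.8. The median over the whole list was 7.40. The local background lay between 1.69 and 2.67 fragments at the 25 TRBS, so the order of the fold enrichments was close to the order of the pileups. The values fell on either side of a gap, which was noticed in these same values. In 18 TRBS the fold enrichment reached at most 10.04 with at most 26 fragments. In the other 7 the fold enrichment was at least 12.8 with at least 39 fragments. Over the whole list, 21.8% of TRBS had a fold enrichment above 12, so the share of stronger TRBS was near that of the list. The 7 stronger TRBS lay at Grm2, Grm5, Grm7 and Grm8. Counting error was wide for the weak TRBS: 15 fragments have a 95% Poisson interval of 8.40 to 24.7. Differences in strength among the weak TRBS of different genes were not tested. Such intervals cover counting error only, since the treatment of duplicate reads is not given in the sources used here.

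**Figure D1:**
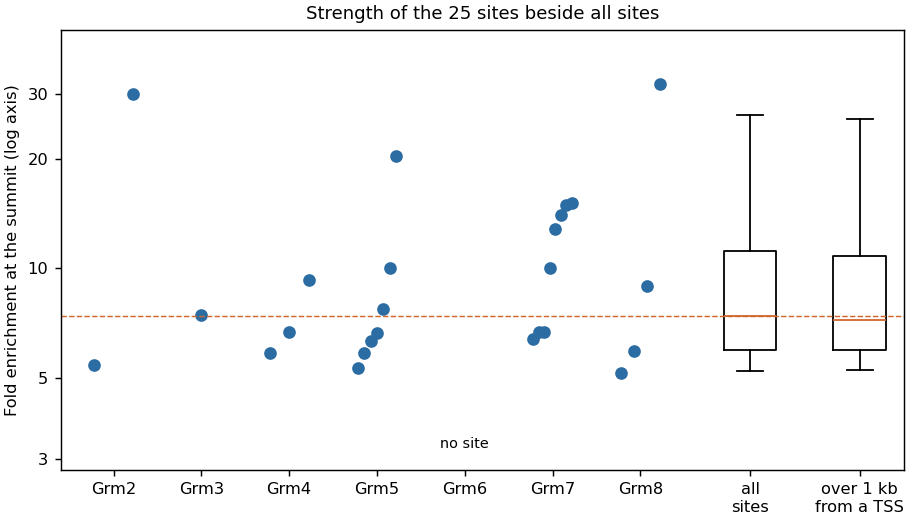
Fold enrichment at the summit (vertical log axis) of each TRBS, 1 point per TRBS, for the 7 Grm genes. The boxes give the quartiles, with the 5th and 95th percentiles as whiskers, for all 23988 TRBS and for those over 1 kb from a protein-coding TSS; the dashed line is the median of all TRBS, 7.40. The highest points of Grm8 (32.0), Grm2 (30.1) and Grm5 (20.3) stand above the other TRBS of the same gene, while 4 of the 8 points of Grm7 lie between 12.8 and 15.1.

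Grm5, the group I gene, encodes a receptor that releases calcium from intracellular stores (chromosome 7, 87584168 to 88134907, plus strand). It was the only one of the 7 Grm genes with a TRBS within 1 kb of its 5′ end, against 23.2% of protein-coding genes. This TRBS, at 87584026 to 87584466, had its summit 71 bp inside the gene. The annotation places that summit in the first exon of a noncoding transcript with a retained intron, whose start is the 5′ end used here. The summit lay outside the protein-coding transcript of greatest span. Its pileup was 57 (95% Poisson interval 43.2 to 73.9) and its fold enrichment 20.3, which exceeded 91.4% of the values of the list. A second TRBS followed 2244 bp from the 5′ end, at 87586212 to 87586579, where 20 fragments gave a fold enrichment of 7.74. The intervals of these neighbouring pileups did not overlap, as the upper bound of the second was 30.9. The difference in strength between these neighbours was not tested.

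The other 5 TRBS of Grm5 lay 147 to 401 kb into the gene, in introns, with pileups of 15, 16, 16, 26 and 18 in order from the 5′ end. Their fold enrichments were 5.84, 5.33, 6.29, 10.04 and 6.62. Their 95% Poisson intervals overlapped, and differences in strength between them were not tested. Grm5 had 7 TRBS in all. The 156 other protein-coding genes whose length was within 20% of that of Grm5 had a median of 4, and 30.8% of them had 7 or more.

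Grm2, a group II gene whose product is a presynaptic autoreceptor, spans 12.99 kb (chromosome 9, 106643095 to 106656082, minus strand). Neither of its 2 TRBS lay inside the gene. Both lay upstream, inside Tex264, the neighbouring gene on the same strand, which encodes a receptor for the autophagy of the endoplasmic reticulum. The stronger, at 106685120 to 106686156, reached 80 fragments, with a fold enrichment of 30.1. Its summit was 29629 bp from the 5′ end of Grm2, just inside the limit of 30 kb, but only 216 bp from that of Tex264. The weaker, at 106676053 to 106676361, had 16 fragments and a fold enrichment of 5.42, and lay 20115 bp from Grm2 and 9730 bp from the 5′ end of Tex264. Within Grm2 itself no TRBS was listed. The nearest TRBS on the other side of the gene lay outside the rule, 218 kb from the 5′ end.

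Grm3, the other group II gene, is also expressed by astrocytes (chromosome 5, 9485541 to 9725170, minus strand). It held 1 TRBS along 240 kb, at 9631714 to 9632035 in its first intron, 93.3 kb from the 5′ end. The pileup was 19 and the fold enrichment 7.44, the median of the 25. Among the 456 other protein-coding genes of similar length (within 20%), 84.2% had at least 1 TRBS and the median was 2. The best DR4-like repeat of this TRBS had 3 mismatches and was centred 5 bp from the summit.

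In group III, Grm4 encodes a presynaptic receptor (chromosome 17, 27422387 to 27521403, minus strand). Its 3 TRBS lay 9.18, 19.5 and 66.5 kb into the gene, with pileups of 26, 17 and 17 and fold enrichments of 9.28, 6.69 and 5.85. Their 95% Poisson intervals overlapped. None was near the outermost 5′ end, but 2 of them were close to the annotated starts of shorter transcripts. The first, at 27511839 to 27512398, had its summit 1183 bp downstream of the first of these starts. The second, at 27501640 to 27502013, lay 1434 bp downstream of the other one. The density in the gene was 3.03 TRBS per 100 kb, the highest of the 7 Grm genes, but over all 1233 other protein-coding genes of similar length 28.9% had 3 TRBS or more.

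Grm6, whose receptor is known for its role in retinal ON bipolar cells, had no TRBS (chromosome 11, 50850685 to 50866208, plus strand). The nearest summit was 57.2 kb upstream of the 5′ end, at 50793326 to 50793635, with 23 fragments and a fold enrichment of 8.93. A gene without a TRBS was not unusual at its length of 15.5 kb, as only 58.9% of the 2377 other protein-coding genes of similar length had one. Since TRBS with a score below 60 had been removed by the authors, weaker occupancy at Grm6 was not detectable in the list.

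Grm7, the longest of the 7 genes, encodes a presynaptic receptor with low affinity for glutamate (chromosome 6, 110645581 to 111567230, plus strand). It had 8 TRBS, all in introns, spread over 855 kb. In order from the 5′ end their pileups were 18, 21, 17, 39, 26, 47, 46 and 43. Their fold enrichments in the same order were 6.41, 6.66, 6.69, 14.9, 10.04, 15.1, 12.8 and 14.0. The most 5′ TRBS lay at 110666180 to 110666507. The 3 TRBS of the first intron were the weakest of the gene. The lowest of the 4 strongest pileups, 39 fragments, had a 95% Poisson interval of 27.7 to 53.3, which overlapped the interval of the highest of the 3 weak ones (21 fragments, upper bound 32.1). The last 3 TRBS lay at 111399461 to 111399948, 111516406 to 111516838 and 111521224 to 111521648, that is, 81.8, 94.5 and 95.03% of the way along the gene. The last 2 of these were 4.79 kb apart in the same intron.

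The DR4-containing TRBS of Grm7 were the fourth, at 110996262 to 110996662, and the fifth, at 111276611 to 111277061. The number of TRBS at Grm7 was near that of other long genes. The 68 other genes of similar length had a median of 6, and 36.8% of them had 8 or more.

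Grm8, a presynaptic receptor gene of nearly the same length as Grm7 (chromosome 6, 27275119 to 28135178, minus strand), had 4 TRBS. All 4 lay in the same intron of 219 kb, within 47.2 kb of each other, between 21.3 and 26.8% of the way along the gene. From the 5′ end their pileups were 23, 15, 18 and 85, and their fold enrichments were 8.93, 5.92, 5.17 and 32.0. The most 5′ one lay at 27951466 to 27951854. The last, at 27904012 to 27904711, was the strongest of the 25 TRBS. Its pileup had a 95% Poisson interval of 67.9 to 105, while the highest upper bound among the other 3 was 34.5. This TRBS was named for its strength, so the gap between the intervals is a description and not a test. The strongest TRBS lay 231 kb from the 5′ end of Grm8 and exceeded 96.8% of the fold enrichments in the list. The third TRBS, with 18 fragments, was only 1.72 kb away from it. Of the 73 other genes of similar length, 69.9% had 4 TRBS or more, and their median was 5.

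**Figure D2:**
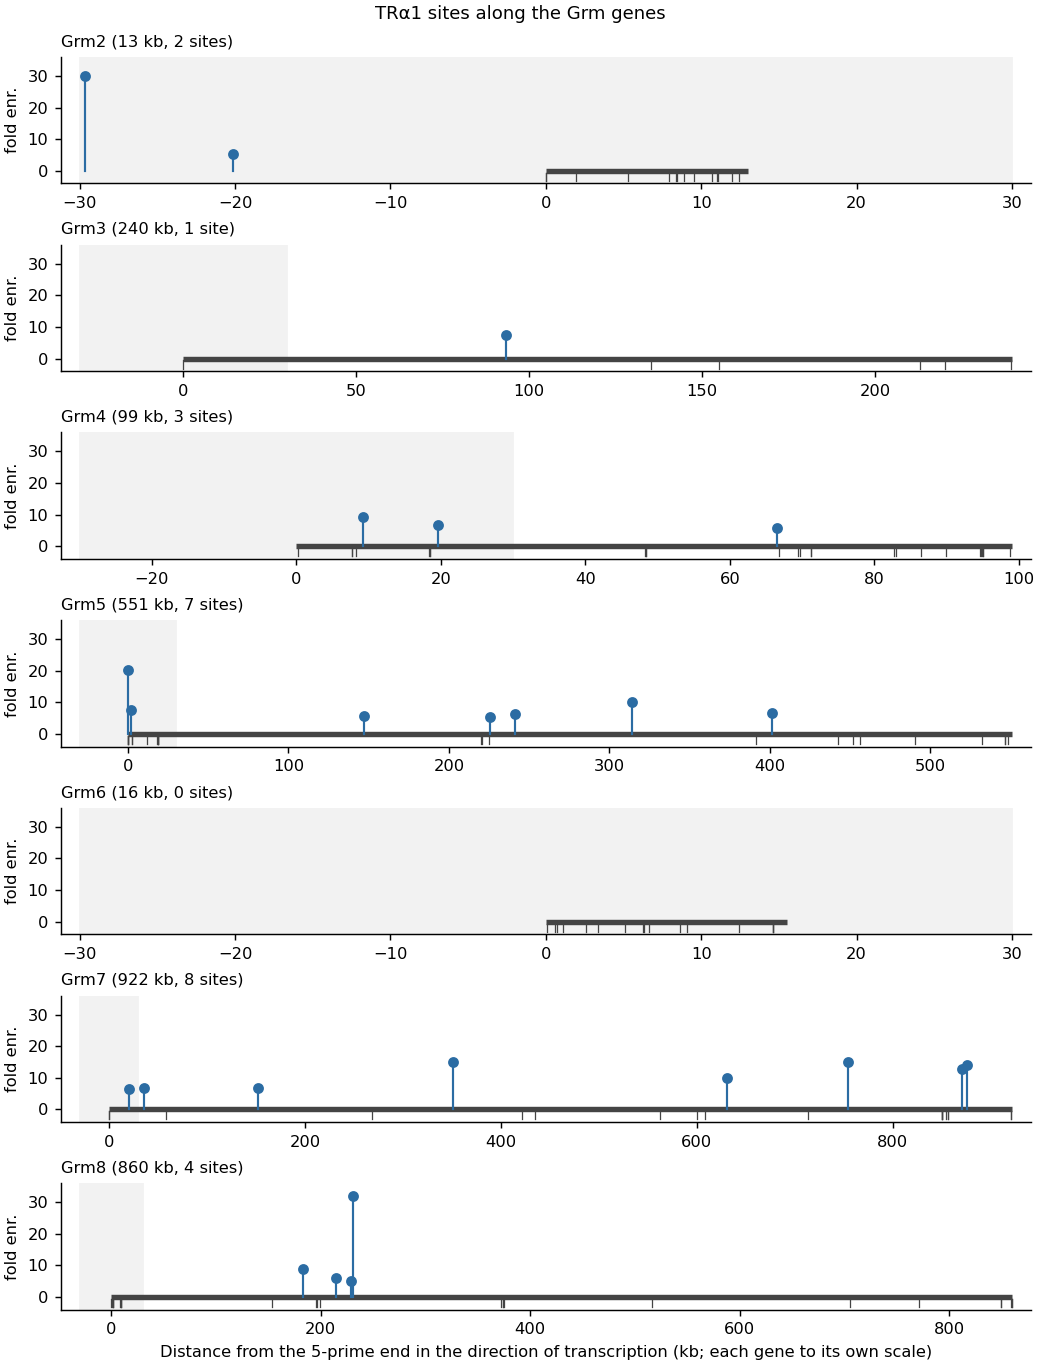
Position of the 25 TRBS along the 7 Grm genes, as the distance in kb from the 5′ end in the direction of transcription (horizontal axis, a scale for each gene) and fold enrichment (vertical axis). The bar is the gene, ticks below it are annotated exons, and grey is the 30 kb on either side of the 5′ end. The TRBS of Grm2 lie upstream of the gene, those of Grm8 cluster near 200 kb, and those of Grm5 and Grm7 are spread along the gene.

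The position of the 25 TRBS was then described together. Inside the Grm genes lay 23 of them, and 22 of these had their summit in an intron of the receptor gene. With the weaker TRBS at Grm2, which was in an intron of Tex264, 23 of 25 summits lay in introns of protein-coding genes, against 47.5% of all TRBS. The rule favours introns, because it takes whole gene bodies, which are mostly intron in long genes. The distance to the nearest exon of the same gene exceeded 10 kb in 17 of the 23 TRBS inside the genes, and 4 of the 23 lay within 2.5 kb of an annotated transcript start of the gene, at Grm4 and Grm5. The gene bodies together spanned 2700 kb and held 0.852 TRBS per 100 kb. All protein-coding gene bodies, with overlapping genes counted each time, held 1.43 per 100 kb. In the 230 genes of at least 500 kb the median over genes was 0.643, compared with 1.27 in Grm5, 0.868 in Grm7 and 0.465 in Grm8.

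**Figure D3:**
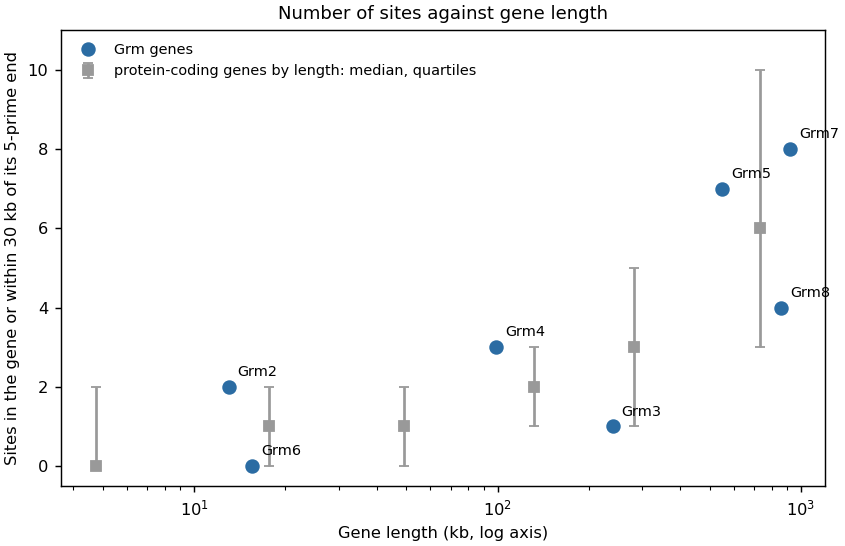
Number of TRBS by the rule (vertical axis) against gene length in kb (horizontal log axis) for the 7 Grm genes (blue). Grey squares give the median for protein-coding genes in 6 length classes, with quartiles as bars. Grm5 and Grm7, with 7 and 8 TRBS, and Grm8, with 4, lie within the quartiles of genes of at least 500 kb, which were 3 and 10.

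The sequence of the TRBS was compared with that of the whole list, as a description. DR4 was present in 3 of 25 TRBS, or 12% (95% exact interval 2.55 to 31.2), and in 17.3% of all TRBS. Windows as wide as each TRBS, moved 5 kb towards higher coordinates, contained no DR4 for the 25 TRBS (0 of 25) and a DR4 in 5.90% of cases over the list. The number of members is too small to tell their share from that of the list. None of the 25 had a DR4 with fewer than 2 mismatches, while 0.542% of all TRBS had one without a mismatch and 3.31% had a best match with 1. A best repeat with 3 mismatches was found in 10 TRBS, or 40%, against 35.6% of the list. Of the 7 strongest TRBS, 6 had no DR4. An exact half-site AGGTCA was present within 100 bp of the summit in 3 of 25, or 12%, against 17.8% of the list.

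The same windows of 100 bp on either side of the summit were searched for motifs of other factors on both strands. The AP-1 motif TGANTCA was found at 4 summits (16%), once each at Grm2, Grm5, Grm7 and Grm8, against 11.5% of all summits. It was also in 2 of the 25 windows 5 kb beside the TRBS, and in 6.14% of such windows over the list. The E-box CAGCTG was found at 5 summits (20%), including the strongest ones of Grm8 and Grm5 and those of 2 TRBS of Grm7, against 12.8% of all summits, but also in 5 of the 25 windows beside the TRBS. The GC-rich SP/KLF motif GGGCGG was found at 2 summits (8%), those near the 5′ ends of Tex264 and Grm5, against 18.2% of all summits. The E-box CACGTG was found at the TRBS of Grm3 alone among the 25, against 4.68% of the list. The CRE motif TGACGTCA, the ETS motif CCGGAAGT, the NR4A motif AAAGGTCA and the EGR motif GCGTGGGCG were at none of the 25 and at 0.542, 0.934, 1.15 and 0.379% of all summits. Among the other arrangements of the half-site, with the same limit of 2 mismatches, DR0, DR3 and IR0 were found at 1 of the 25 summits each, the first 2 at Grm7 and the last at the Tex264 start, against 3.19, 2.76 and 1.24% of all summits. DR1, DR2, DR5 to DR8 and ER6 were not found at the 25 summits, and each was present at 1.33 to 3.23% of all summits, so that 0 or 1 of 25 was near the share of the list. AGGTCA is part of the NR4A motif and of these repeats, so these searches overlap.

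Base composition varied among the 25 TRBS. The GC content within 100 bp of the summit ranged from 27.9 to 74.6%, with a median of 42.8%, while the median of the list was 50.7%. For TRBS more than 1 kb from a protein-coding 5′ end the median was 48.3%. In introns of genes of at least 200 kb it was 41.8% at the Grm genes and 46.8% for other TRBS. The highest values were those of the strong TRBS at the start of Tex264 (74.6%) and of the first TRBS of Grm4 (68.2%). In Grm7 the range was 31.8 to 53.2%. No more than 1 CpG was found in 16 of the 25 windows, against 25.5% of all TRBS. In genes of at least 200 kb, 16 of 19 intronic TRBS of Grm genes had at most 1 CpG, against 36.6% of 4105 other intronic TRBS. This quantity and this length limit were chosen after the values had been seen.

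**Figure D4:**
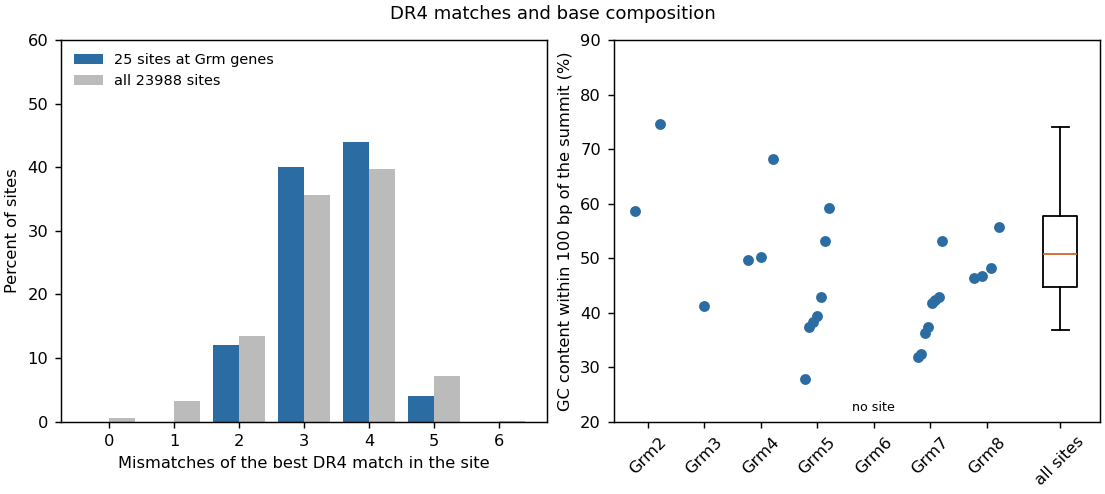
Left, percentage of TRBS (vertical axis) by the number of mismatches of the best DR4 match (horizontal axis), for the 25 TRBS at Grm genes (blue) and all 23988 TRBS (grey); 12% against 13.4% had 2 mismatches. Right, GC content in percent within 100 bp of the summit for each TRBS by gene, with a box of all TRBS (quartiles, and 5th and 95th percentiles as whiskers); most TRBS of Grm5, Grm7 and Grm8 lie below the median of the list, 50.7%.

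Occupancy at the genes that carry the signal of these receptors was described with a list of 27 genes. At least 1 TRBS was found at 26 of them by the same rule, against 57.7% of protein-coding genes. Their median length was 67.9 kb, while that of all protein-coding genes was 17.4 kb. A TRBS within 1 kb of the 5′ end was found at 15 of the 27, against 23.2%, and at 1 of the 7 Grm genes. The median fold enrichment of the 133 TRBS was 8.18, and 26 of them contained a DR4, compared with 17.3% of all TRBS.

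On the group I side all 6 listed genes had a TRBS, against 57.7% of protein-coding genes. Their median length was 296 kb, and 87.0% of protein-coding genes of 200 to 500 kb had a TRBS. Itpr1, the calcium release channel opened by inositol trisphosphate, had 13, and the strongest had a value of 28.3 for fold enrichment. Plcb1, a phospholipase C activated by Gq, had 12, of which 4 contained a DR4, with a highest fold enrichment of 26.1. Gnaq, the α subunit of Gq, had 9 with a highest value of 42.6. A DR4 was contained in 2 of the TRBS of Itpr1 and in 3 of those of Gnaq. Over the 6 genes it was contained in 9 of 41 TRBS, against 17.3% of all TRBS. A TRBS within 1 kb of the 5′ end was found at 5 of the 6 listed genes, Itpr1, Plcb1 and Gnaq included, against 23.2% of protein-coding genes. Gna11, the α subunit gene of the same list, had none there.

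On the group II and III side 9 of 10 genes had a TRBS, and Gnai1, which encodes an inhibitory α subunit, had none. The median length of the 10 genes was 81.6 kb, and 63.5% of protein-coding genes of 30 to 100 kb had a TRBS. Adcy5, the adenylyl cyclase that predominates in striatal projection neurons, had 21 TRBS, the largest number in the list of 27, with a highest fold enrichment of 61.5, but none within 1 kb of its 5′ end. Gnao1, the α subunit of Go, had 11, of which 5 contained a DR4, and the highest value was 67.3. Kcnj3, a subunit of G protein-gated potassium channels, had 3 with a highest value of 35.0. A DR4 was contained in 2 of the TRBS of Adcy5 and in 1 of those of Kcnj3. Over the 10 genes it was contained in 10 of 47 TRBS, against 17.3% of all TRBS.

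All 11 genes for scaffolds and binding partners had a TRBS, against 57.7% of protein-coding genes. Their median length was 60.6 kb, and 63.5% of protein-coding genes of 30 to 100 kb had a TRBS. Shank3, Shank2 and Shank1, which link mGluR5 through Homer proteins to the postsynaptic density, had 8, 7 and 7. Their highest fold enrichments were 15.3, 15.2 and 13.9. The highest value among the 11 genes was 45.001, at Grip1, which was singled out after its value was seen.

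The 18 ionotropic glutamate receptor genes have a median length of 298 kb. Each had a TRBS by the rule, against 57.7% of protein-coding genes and 87.0% of those of 200 to 500 kb. A TRBS within 1 kb of the 5′ end was found at 6 of the 18, against 23.2% of protein-coding genes. The 99 TRBS of the 18 genes had a median fold enrichment of 7.07, compared with 7.44 for the 25 TRBS of the Grm genes. DR4 was present in 17 of the 99, near the 17.3% of all TRBS. Whether the medians of fold enrichment differ between these receptor families was not tested, because TRBS are not replicates. The labelled cell type could be examined only through occupancy, as the list holds no expression. Of 8 genes that characterize striatal GABAergic neurons, 7 had a TRBS, and Adora2a had none. Since 57.7% of all protein-coding genes had one, this count says little about the cell type.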

How the data were processed

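Striatal chromatin was immunoprecipitated for tagged TRα1 (2 libraries) beside 1 input library, as given in the sample titles. The submitters' processing notes name Bowtie2 2.3.2.2, MACS2 2.1.1.20160309.0 and mm10. The authors kept peaks whose score was 60 or more. Pooling of the ChIP libraries before the calling of peaks is not given in the sources used here. The deposited pileup is a coverage signal in fragments, the deposited fold enrichment is a ratio, the deposited −log10 q-value belongs to the summit, and the deposited score is 10 times −log10 q without decimals. The remaining 4 numeric columns, the −log10 p-values and copies of others, were not used. Positions (1-based) fitted the chromosome lengths of GRCm38.p6, whose RefSeq sequence was used. The local background was computed from pileup and fold enrichment.

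Members, gene lists and motifs were chosen with earlier results of these data known. No test was made, because the list holds no value per library. Counts and medians stand beside those of all TRBS or protein-coding genes. Named were the 7 Grm genes, the strongest, the most 5′ and the DR4-containing TRBS of each, the 3 genes with the most TRBS in each role of the signalling list (ties by the highest fold enrichment, which placed Kcnj3 before Kcnj6 and Gnb1), and genes whose body or 5′ end was nearer to a named TRBS. Alternatives concerned distance, position, score, transcript starts, mismatches and windows. Scripts ran in Python 3.11.15 with pandas 2.3.3, numpy 2.4.6 and scipy 1.17.1, figures were drawn with matplotlib 3.10.9, and the motif search and assignment were tested on simulated data. Of the 3 DR4-containing TRBS, 1 is not reported here as such.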

Additional observations from a re-analysis of the deposited data

How the results depend on the processing

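The alternatives gave 103 values, of which 47 concerned totals over the Grm genes or the signalling list and 38 of these stayed within 1.5 times the reported count or within the interval of the median. The score minimum moved most of the others. With a score of at least 100, 14 TRBS were left, 12 in introns, with a median fold enrichment of 11.4. With a score of at least 200, 7 were left, 5 in introns and 1 with a DR4, with a median of 15.1, and 4 of the Grm genes had a TRBS, against 30.6% of protein-coding genes. These changes follow from the removal of weak TRBS. DR4 was found in 0 TRBS with at most 1 mismatch and in 13 with at most 3, against 3.86 and 52.9% of all TRBS. Of 56 counts for single genes 14 moved, among them Grm2, from 2 to 0 with 10 kb or the gene body alone, and Grm6, from 0 to 3 with 100 kb. No paired analysis was possible because the list holds no value per library, and no library could be left out. The effect of depth was not tested, and TRBS with a score below 60 are not in the list.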
